A study of Chlamydomonas reinhardtii with 2 samples.

Results

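Chaperonins are barrel-shaped protein folding machines that enclose an unfolded protein and release it after ATP hydrolysis. The plastid machine is built from alpha and beta CPN60 subunits, relatives of bacterial GroEL, and is known for folding newly made or imported proteins of the chloroplast, the large subunit of Rubisco among them. Co-chaperonins, relatives of bacterial GroES, form the lid of the barrel, and in green algae and plants some of them carry GroES-type domains in tandem. Mitochondria have their own CPN60 and CPN10. The transcripts of 6 chaperonin genes were followed here in Chlamydomonas reinhardtii, a unicellular green alga. They were taken by their gene symbol from a table of 17147 gene loci, and all 6 had a row. CPN60A codes for the plastid alpha subunit, CPN60B1 and CPN60B2 for plastid beta subunits, CPN20 and CPN23 for plastid co-chaperonins, and CPN60C for the mitochondrial CPN60, which stands beside the 5 plastid genes as a contrast.

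RNA from 2 cultures of the wild-type strain CC-1690 (21gr) was sequenced, 1 library per culture. One culture was phosphate deprived, washed and held for 24 h in acetate medium without phosphate (0 mM). The other was phosphate replete, held for 24 h in the same medium with 1.1 mM phosphate. Both were shaken at 200 rpm and 25 °C under constant illumination (70 µmol/m2/s). With 1 library per condition there is no replicate error, no test between conditions was possible, and every difference below is one between these 2 libraries. Fewer cells with a transcript and less transcript per cell cannot be told apart in such bulk RNA. The members were selected on their symbols with the RPKM values and folds of these 2 libraries already known, so their folds are a description and no test. Levels are RPKM, reads normalised for the length of the transcript and for sequencing depth, which sum to 855498 in the deprived and 901012 in the replete library. The libraries go with their labels for known phosphate starvation genes. PHOX, a phosphate-repressible alkaline phosphatase gene, had 124 RPKM in the deprived and 0.953 RPKM in the replete library, and the phosphate transporter gene PTB2 had 2016 RPKM in the deprived and 148 RPKM in the replete library.

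All 6 chaperonin transcripts were lower in the deprived library. The summed level of the 6 genes was 286 RPKM in the deprived and 652 RPKM in the replete library, so the deprived sum was 43.9% of the replete sum. The 3 genes with the largest differences, CPN20, CPN60A and CPN60B2, were at least 2-fold lower, and the remaining 3, CPN23, CPN60B1 and CPN60C, lay just within 2-fold. Each fold is the log2 ratio of deprived to replete RPKM, with 1 RPKM added to either value first, which makes it slightly smaller. Among all 13855 genes with a mean of at least 1 RPKM over both libraries, 1.64% were at least 2-fold lower and 5.59% at least 2-fold higher, and 38% had a fold below 0. All 6 members passed this minimum, with means between 37.3 and 105 RPKM.

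**Figure D1:**
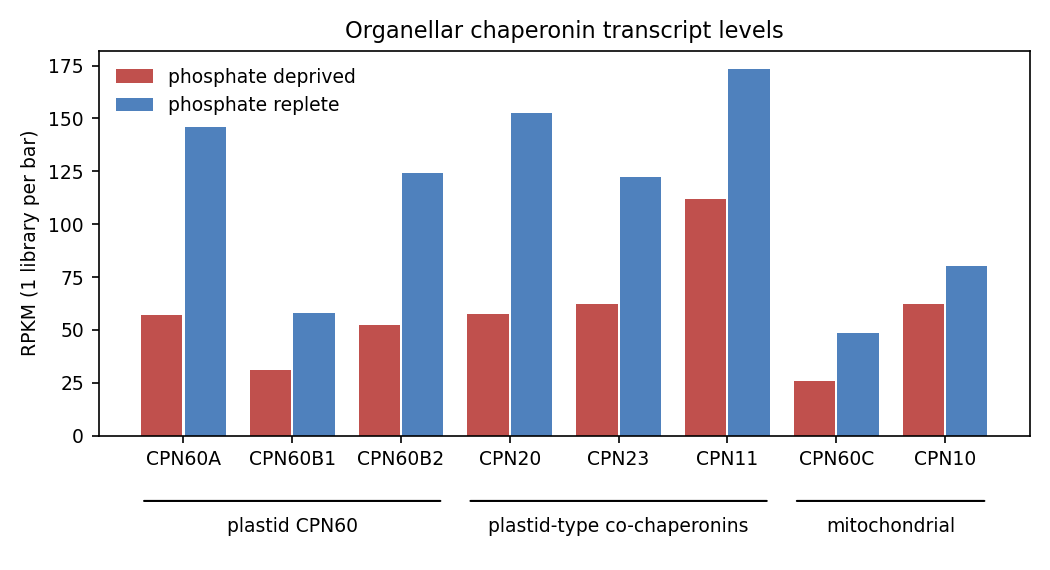
RPKM (y axis) of the 6 chaperonin genes and of the further co-chaperonin genes CPN11 and CPN10 (x axis) in the phosphate deprived (left bar) and the phosphate replete library (right bar), with 1 library per bar and no error bar. All 8 deprived bars are the shorter ones, and the replete bars of CPN20 (153 RPKM) and CPN60A (146 RPKM) are the tallest of the 6 members.

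CPN60A (Cre32.g781650), the alpha subunit gene, had 57.1 RPKM in the deprived and 146 RPKM in the replete library, a log2 fold of -1.34. CPN60B2 (Cre07.g339150), the more abundant beta subunit gene, had 52.1 RPKM in the deprived and 124 RPKM in the replete library, a log2 fold of -1.24. CPN60B1 (Cre17.g741450), the other beta subunit gene, had 30.9 RPKM in the deprived and 57.9 RPKM in the replete library, a log2 fold of -0.88. The deprived level was thus 39.1% of the replete level for CPN60A and 42.0% for CPN60B2, against 53.4% for CPN60B1. The beta subunit genes are close paralogs, and how reads common to both were counted is not given in the sources used here, so the split between them is uncertain to that extent.

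Both tandem-type co-chaperonin genes of the plastid were lower as well. CPN20 (Cre28.g776900) had 57.6 RPKM in the deprived and 153 RPKM in the replete library, and its log2 fold of -1.39 was the lowest of the 6. CPN23 (Cre12.g505850) had 62.2 RPKM in the deprived and 122 RPKM in the replete library, a log2 fold of -0.96. CPN20 was therefore the higher of this pair in the replete library and the lower in the deprived library. The median log2 fold over the 5 plastid genes was -1.24, beside a median of 0.14 over all 13855 genes.

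CPN60C (Cre06.g309100), the mitochondrial gene, had 26.0 RPKM in the deprived and 48.7 RPKM in the replete library, a log2 fold of -0.88. Its fold lay 0.36 above the plastid median, but was the same to 2 decimals as that of plastid CPN60B1. The mitochondrial gene thus lay at the upper edge of the plastid genes, not apart from them. Its mitochondrial partner CPN10 (Cre03.g178450), described in the table as very likely mitochondrial, had 62.1 RPKM in the deprived and 80.2 RPKM in the replete library, a log2 fold of -0.37.

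In the ranking of all 13855 genes from the lowest fold upward, CPN20 was at position 51, CPN60A at 71 and CPN60B2 at 95. CPN23 was at position 266, CPN60B1 at 341 and CPN60C at 342, so that all 6 were within the lowest 2.47% of genes. Abundant genes were lower more often than weak ones. Among the 2182 genes with a mean of at least 30 RPKM, a level all 6 members exceed, 4.54% were at least 2-fold lower and 46.7% had a fold below 0.

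**Figure D2:**
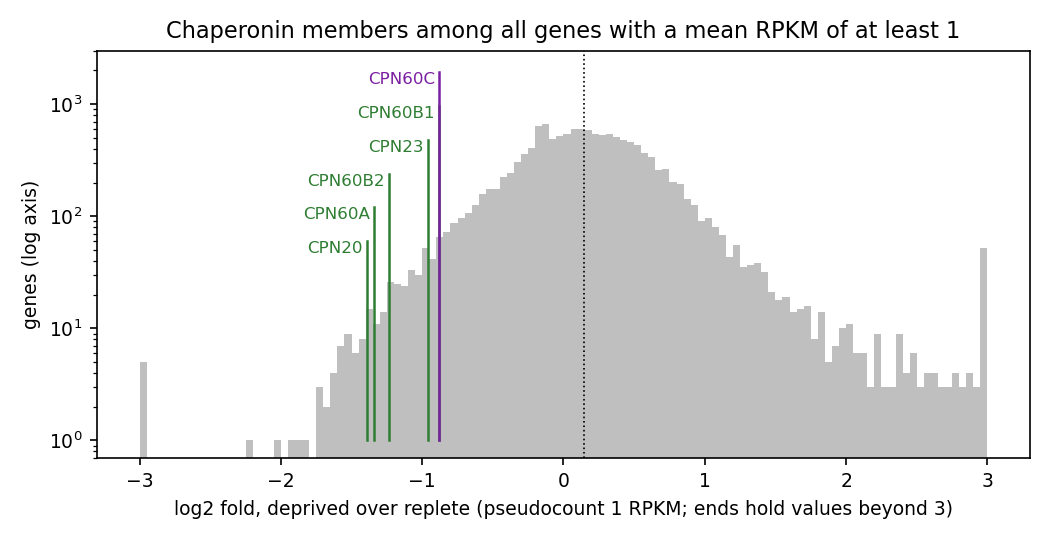
Number of genes (y axis, log scale) by log2 fold of deprived over replete (x axis) for the 13855 genes with a mean of at least 1 RPKM, with plastid members as green lines, CPN60C as a purple line and the all-gene median of 0.14 dotted. The height of a member's line has no meaning. The 6 members lie on the lower flank, between -1.39 and -0.88, where CPN60B1 and CPN60C coincide.

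The size of counting error can be approximated from the table. A deprived to replete ratio of 0.870 was shared by 1247 genes (tolerance 0.00002), a pattern that can be read as 1 read added to genes without reads. Of these, 406 passed the minimum of 1 RPKM and are among the 13855 genes. Their shared ratio puts them in the 38% with a fold below 0, and they enter the other values over all genes too. No source states the reading as 1 added read. The highest replete value among the 1247 genes was also assumed to be 1 read on a transcript of only 1 base. With both assumptions, and at an assumed transcript length of 1000 bases, between 186 and 951 reads lay behind each member in each library. A length of 1 base is the shortest possible, so at 1000 bases these are the most reads that this reading allows. If the gene with that highest value is longer, the reads are fewer by that factor. The 95% counting interval of the log2 fold, computed without the added 1 RPKM, was then -1.58 to -1.24 for CPN20, -1.53 to -1.18 for CPN60A and -1.43 to -1.07 for CPN60B2. For CPN23 it was -1.14 to -0.80, for CPN60B1 -1.15 to -0.66 and for CPN60C -1.18 to -0.64. With this largest number of reads, the intervals of the first 3 genes stayed beyond 2-fold, and those of the other 3 included it. With fewer reads those of the first 3 could include it too. These intervals cover counting error only and not the variation between cultures. They would be wider for shorter transcripts, and wider if the gene that set the read unit is longer than 1 base. The same holds for every counting interval given below, and for each call of a difference beyond counting error.

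Of the 15 pairs among the 6 genes, 9 differed in fold by more than this counting error, as approximated with the largest number of reads. These were the pairs that join CPN20, CPN60A or CPN60B2 with CPN23, CPN60B1 or CPN60C. CPN60A and CPN60B1 differed by -0.46 (95% counting interval -0.75 to -0.16), and CPN20 and CPN23 by -0.43 (-0.67 to -0.19). The intervals that came nearest to 0 were those of CPN60B2 with CPN23 (-0.28, -0.52 to -0.03) and with CPN60C (-0.36, -0.68 to -0.04). Slightly fewer reads than inferred would make these include 0, and far fewer could do so for all 9 pairs. The intervals are not corrected for the 15 comparisons. Within either trio no pair differed beyond counting error. CPN60B1 and CPN60C, for instance, differed by -0.003 with an interval of -0.36 to 0.35, which does not show that they respond alike.

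In the order of levels, the replete library had CPN20 (153 RPKM) and CPN60A (146 RPKM) first, then CPN60B2 (124 RPKM) and CPN23 (122 RPKM), and far below them CPN60B1 (57.9 RPKM) and CPN60C (48.7 RPKM). In the deprived library the order was CPN23, CPN20, CPN60A and CPN60B2, all between 52.1 and 62.2 RPKM, followed by CPN60B1 with 30.9 RPKM and CPN60C with 26.0 RPKM. The 95% counting intervals of neighbours in the deprived order overlapped along the first 4 genes, for example 52.1 to 63.3 RPKM for CPN20 and 51.7 to 62.9 RPKM for CPN60A, and again for the last pair. In the replete order CPN60B2 (116 to 133 RPKM) lay below CPN60A (137 to 156 RPKM) without overlap, given the largest number of reads. The highest of the 6 genes was 2.39 times the lowest in the deprived library and 3.14 times in the replete library.

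The relative amounts of the plastid CPN60 transcripts differed between the libraries less than their levels did. CPN60A made up 40.8% of the summed RPKM of CPN60A, CPN60B1 and CPN60B2 in the deprived library (95% exact Clopper-Pearson interval 37.7 to 43.8%) and 44.5% in the replete library (42.3 to 46.7%), intervals that overlap. CPN60B1 made up 22.1% in the deprived library (19.5 to 24.8%) and 17.6% in the replete library (16.0 to 19.4%), intervals that do not. Overlap of separate intervals does not decide whether a share differs, and no interval was computed for the difference between libraries. CPN60B2 held 37.2% in the deprived and 37.9% in the replete library. Alpha stood to beta transcripts as 0.688 in the deprived and 0.802 in the replete library.

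Co-chaperonin and CPN60 transcripts were lower in near proportion when the 2 co-chaperonin members are taken alone. CPN20 and CPN23 together had 0.854 times the RPKM of the plastid CPN60 genes in the deprived library and 0.838 times in the replete library. CPN11 (Cre01.g065600) is a further co-chaperonin gene, described in the table as closer to chloroplast than to mitochondrial forms. It had 112 RPKM in the deprived and 173 RPKM in the replete library, a log2 fold of -0.63, and was the most abundant co-chaperonin transcript in both. The folds of CPN20 and CPN23 lay below that of CPN11 beyond counting error, as approximated with the largest number of reads. CPN20 minus CPN11 was -0.77 (-0.98 to -0.55), and CPN23 minus CPN11 was -0.34 (-0.55 to -0.12). CPN11 thus made up 48.3% of the 3 co-chaperonin transcripts in the deprived library (45.8 to 50.7%), against 38.7% in the replete library (36.9 to 40.5%), while CPN20 made up 24.8% and 34.1% in the same order. With CPN11 included, co-chaperonins stood to plastid CPN60 as 1.65 in the deprived and 1.37 in the replete library. In the mitochondrial pair, CPN10 stood to CPN60C as 2.39 in the deprived and 1.65 in the replete library.

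**Figure D3:**
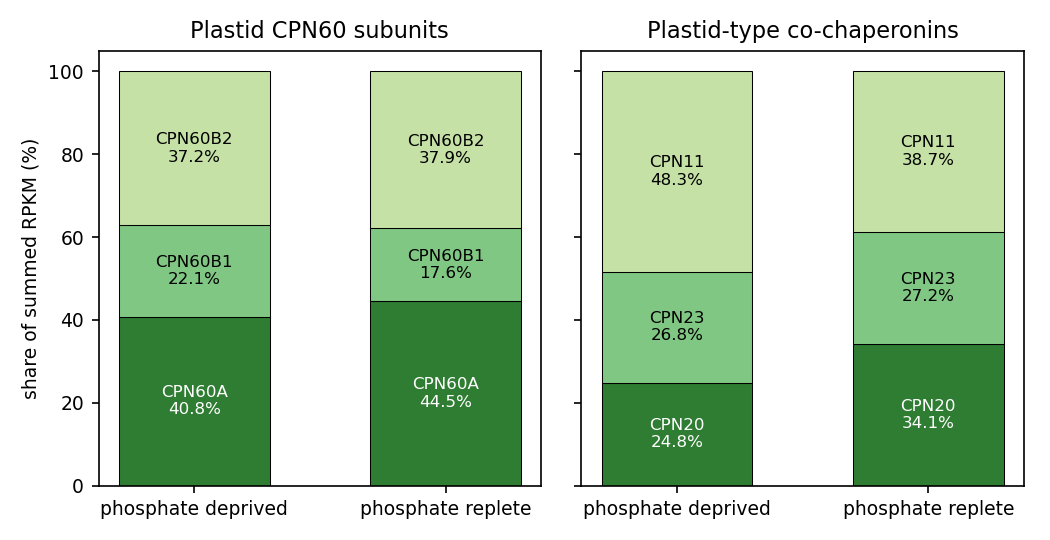
Share of summed RPKM (y axis, percent) of the 3 plastid CPN60 genes (left panel) and of the 3 plastid-type co-chaperonin genes (right panel), each in the deprived library (left bar) and the replete library (right bar). CPN60A holds 40.8% of CPN60 in the deprived and 44.5% in the replete library, and CPN11 holds 48.3% of the co-chaperonins in the deprived and 38.7% in the replete library.

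The remaining chaperonin genes were described by the same measure. The cytosolic chaperonin CCT, which folds actin and tubulin, is a separate machine of the eukaryotic cytosol. None of its 7 measured genes was 2-fold different, and their median log2 fold was 0.16, close to the 0.14 of all genes. Over all genes 1.64% were at least 2-fold lower and 5.59% at least 2-fold higher. CCT2 had 52.8 RPKM in the deprived and 37.3 RPKM in the replete library (0.49), CCT6 49.1 and 39.7 RPKM (0.30) and CCT8 40.7 and 33.3 RPKM (0.28) in the same order. CCT3, CCT1, CCT5 and CCT7 had log2 folds of 0.16, 0.14, 0.08 and 0.02. All 7 CCT folds were above 0 as deposited, but only 3 after scaling both libraries to the same median or by the trimmed mean, and 5 after quantile normalization. Over all genes 38% were below 0 as deposited. The same 3 scalings moved the median of all genes from 0.14 to -0.03, 0.00 and -0.03, so these counts shift with all genes. The highest member of the plastid set, at -0.88, was below the lowest CCT gene, at 0.02.

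A wider search for rows that carry a CPN symbol or mention chaperonins gave 9 further genes. As deposited 7 of them were below 0 (6 after scaling to a common sum) and 0 at least 2-fold different, with a median of -0.19. Over all genes 38% were below 0 as deposited, and 46.7% of those with a mean of at least 30 RPKM. At least 2-fold lower were 1.64% of all genes, and 5.59% were at least 2-fold higher. After CPN11, the lowest were PFD2 (-0.48), a subunit gene of prefoldin, which hands unfolded proteins to CCT, and CPN10. The prefoldin genes PFD3, PFD4 and PFD6 had -0.24, -0.19 and -0.03. By their descriptions, neither the prefoldin genes nor the remaining 3 are chaperonins, so the count and median above mostly describe other genes. The remaining 3 were CPN2, a tubulin folding cofactor B gene (0.49), the eyespot assembly gene EYE2 (-0.11) and the ABC1-like gene Cre10.g428150 (0.23).

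Other chaperones of the plastid did not share the difference as a group. Of 10 measured genes, 5 were below and 5 above 0 as deposited (7 and 3 under 3 of the scalings), none was 2-fold different, and the median was -0.03. Over all genes 38% were below 0, 1.64% at least 2-fold lower and 5.59% at least 2-fold higher as deposited. The same 3 scalings put the median of all genes at or just below 0. HSP70B, the main plastid HSP70, had 145 RPKM in the deprived and 142 RPKM in the replete library (0.03, and below 0 after scaling to the same median, by the trimmed mean or by quantiles). The highest folds were those of the J-domain protein gene CDJ4, with 10.2 RPKM in the deprived and 4.92 RPKM in the replete library (0.92), and of VIPP1, a thylakoid membrane maintenance protein, with 140 RPKM in the deprived and 79.3 RPKM in the replete library (0.82). The lowest were those of the trigger factor gene TIG1, whose product meets nascent chains at the plastid ribosome, with 19.8 RPKM in the deprived and 31.7 RPKM in the replete library (-0.65), and of CGE1a, the nucleotide exchange factor of HSP70B, with 67.2 and 102 RPKM in the same order (-0.60).

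Of the mitochondrial matrix chaperones, 3 were measured. HSP70C, the mitochondrial HSP70, had 29.96 RPKM in the deprived and 53.6 RPKM in the replete library, a log2 fold of -0.82 near that of CPN60C. HEP1, an HSP70 escort protein gene (0.40), and the J-domain protein gene MDJ1 (0.08) were expressed below 3 RPKM in both libraries, where a few reads decide the fold.

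The Clp genes, most of which code for a barrel-shaped protease of the plastid stroma (CLPP2 is described as mitochondrial), had the lowest median of the related lists, -0.59 over the 11 genes that passed the minimum of 1 RPKM. CLPS2 did not reach it. Of these 11, 9 were below 0 as deposited (8 after scaling to a common sum) and 2 were at least 2-fold lower (4 with the same median, 1 with a common sum). Over all genes 38% were below 0 and 1.64% at least 2-fold lower as deposited, and 3.18% with the same median and 1.33% with a common sum were at least 2-fold lower. CLPT4, a ClpT-like accessory subunit gene, had 23.2 RPKM in the deprived and 55.2 RPKM in the replete library (-1.21), and CLPR4, an inactive core subunit gene, had 34.7 RPKM in the deprived and 73.7 RPKM in the replete library (-1.06). The highest were the adaptor gene CLPS1 (0.27) and CLPT3 (0.22).

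Rubisco, whose large subunit is a client of the plastid chaperonin, was represented by 6 nuclear genes of its small subunit, activase and maturation. None was 2-fold different, where 1.64% of all genes were at least 2-fold lower and 5.59% higher, and their median was -0.18. The small subunit genes RBCS2A and RBCS1, near-identical copies whose reads may have been divided between them, had 10749 and 1424 RPKM in the deprived library, against 11562 and 1701 RPKM in the replete library (-0.11 and -0.26). The lowest folds were those of the Rubisco activase gene RCA1 (-0.42) and the methyltransferase gene RMT1 (-0.41), and the highest those of the activase-like gene RCA2 (0.22) and of MRL1 (0.03), which stabilizes the large subunit transcript.

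**Figure D4:**
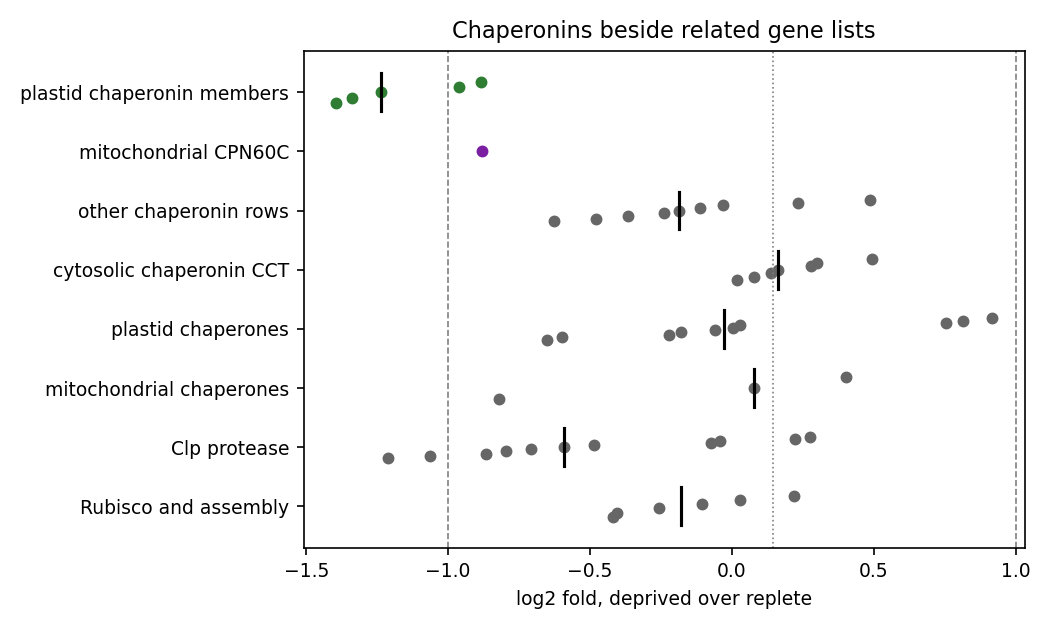
Log2 fold of deprived over replete (x axis) of each gene (points) in the chaperonin sets and related lists (rows), with list medians as black bars, the all-gene median dotted and 2-fold limits dashed. The 5 plastid chaperonin genes lie between -1.39 and -0.88, the 7 CCT genes between 0.02 and 0.49.

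The genes most like each member were sought among 3020 genes with a symbol, by the distance between log2 RPKM in both libraries, which with 2 libraries reflects only level and fold. For CPN60A the nearest was CPN20, at a distance of 0.07, followed by the S-adenosylmethionine decarboxylase gene DCA1 (0.08). CPN20 had CPN60A and then the peroxin gene PEX11 (0.10). CPN60B2 had the translation initiation factor gene EIF4E (0.14) and CPN23 (0.26), and CPN23 had the threonine synthase gene THS1 (0.10) and EIF4E (0.11). CPN60B1 was nearest to the La-domain protein gene LAL3 (0.05) and the adrenodoxin-like ferredoxin gene MFDX (0.11). CPN60C was nearest to the thylakoid lumenal protein gene CPLD44 (0.07) and the elongation factor-like gene EFG3 (0.09).

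The median over all genes was not at 0, and scaling the libraries moved it to -0.03 (same median), 0.00 (trimmed mean), -0.03 (quantiles) or 0.20 (common sum). Relative to the median of all genes, the plastid chaperonin median was -1.38 as deposited and lay between -1.42 and -1.30 under the 4 scalings. Under 3 of these scalings all 6 members, CPN60C included, were at least 2-fold lower, when 2.85% to 3.18% of all genes were. The split of all genes at least 2-fold different moved with them, for example to 3.18% lower and 3.70% higher with the same median, against 1.64% lower and 5.59% higher as deposited. All 6 remained below 0 under every scaling and pseudocount tried. The share of all genes below 0, 38% as deposited, was not computed for these alternatives. Of the scalings, 3 put the median of all genes at or just below 0.

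**Figure D5:**
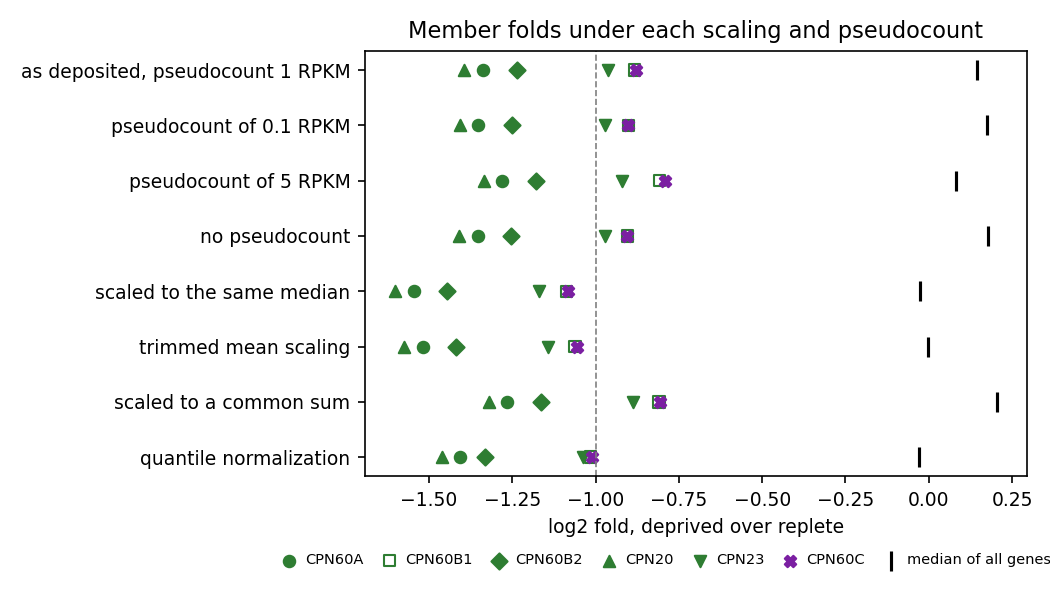
Log2 fold of deprived over replete (x axis) of the 6 members (symbols, plastid green and mitochondrial purple) and the median of all genes (black ticks) under each scaling and pseudocount (rows), with the 2-fold limit dashed. CPN20 has the lowest fold in each row shown, and CPN23, CPN60B1 and CPN60C cross the 2-fold limit under 3 of the scalings.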

How the data were processed

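The authors deposited RPKM values for 17147 gene loci in 2 libraries. Bowtie is listed, without its version or role, per the submitters' processing notes. How reads were counted, on which build and annotation and with which filters is not given in the sources used here. Coordinates were therefore left out. Reads per gene, and so depth, are known only through the inference described above. Columns were matched to libraries by the library code in the labels. A RefSeq gene table (assembly Chlamydomonas_reinhardtii_v5.5) matched 4 of the 6 members by locus tag and added no symbol. A planned search of promoter sequences was not made.

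Log2 folds were computed with a pseudocount of 1 RPKM in Python 3.11.15 (pandas 2.3.3, scipy 1.17.1), for genes with a mean of at least 1 RPKM. Calculations were tested on simulated counts drawn with the same inferred read unit. That test checks the code only, not the unit or the variation between cultures. No test across samples was possible. Counting intervals are at the 95% level and depend on the inferred reads. Given those reads they are exact for folds, shares and levels, and by a normal approximation for differences between folds.

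The members and lists were chosen with earlier results of these data known. Named genes are the members, every other chaperonin and CCT row, the 2 highest and 2 lowest of each further list, 2 neighbours per member, PHOX and PTB2. HSP70B, CLPS2, CLPP2 and the Rubisco small subunit genes were named in addition, after their values were seen. Symbols with a letter added (CGE1a, RBCS2A) were counted with their list. Alternatives were pseudocounts of 0.1, 5 and 0 RPKM, 4 scalings (same median, trimmed mean with 30% and 5% trimmed, common sum, quantiles), no minimum and a mean of at least 5 RPKM. A mean of at least 30 RPKM, CPN11 among the plastid genes and CPN10 in place of CPN60C were added after the data were seen.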

Additional observations from a re-analysis of the deposited data

How the results depend on the processing

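The count of members at least 2-fold lower was 3 of 6 as deposited and under each pseudocount, minimum and the common sum. It was 6 once both medians were equalized, 6 with the trimmed mean and 6 with quantile normalization. Of all genes, 1.64% were at least 2-fold lower as deposited, 0.83% with a pseudocount of 5 RPKM and 2.57% with no pseudocount. This share was 1.32% without a minimum, 4.54% at a mean of at least 30 RPKM and 1.33% with the common sum. With equalized medians it was 3.18%, with the trimmed mean 2.94% and with quantile normalization 2.85%. The plastid median fold of -1.24 became -1.44 with equalized medians, and the other settings moved it less, to -1.10 with CPN11 added. No counting interval was computed for this median, and the single-gene interval of CPN60B2 was the measure used for it. The difference between CPN60C and the plastid median was 0.36, 0.87 when CPN10 took the place of CPN60C and 0.22 when CPN11 was added to the plastid genes, both alternatives chosen after the data were seen. Uniform scaling and the minimum leave the CPN60A share as it is by construction, pseudocounts were not applied to it, and with quantile normalization it was 41.2% in the deprived and 44.3% in the replete library. The fold of each of the 6 members stayed below 0 under every scaling and pseudocount tried. The share of all genes below 0 was not computed for these alternatives. HSP70B and the CCT and mitochondrial chaperone medians were above 0 as deposited and below 0 under some scalings. No paired analysis was possible because each condition has 1 library. The folds of members within either trio were not told apart by the approximate counting intervals, and 1 library per condition leaves the variation between cultures unmeasured.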
